A study of Arabidopsis thaliana with 11 samples.

Results

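The genes described here are 45 nuclear loci of Arabidopsis thaliana whose proteins carry out the light reactions of photosynthesis and the fixation of carbon dioxide in the chloroplast. They comprise 4 LHCA, 14 LHCB, 12 PSA and 10 PSB genes and 5 genes of Rubisco, namely 4 small-subunit genes (RBCS) and RCA. The loci were given by identifier, through a rule that uses no measured value, and 45 of 45 were found among the 69198 features of the deposited count tables. Their mRNA was measured in hand-dissected endosperm, the seed tissue that nourishes the embryo, in 11 libraries, each from Ler plants pollinated by Col. In experiment 1 (6 days after pollination), homozygous nrpd1 endosperm with nrpd1a-4 in the Ler mother and in the Col father (3 libraries) was set against Ler by Col wild type (2 libraries). In experiment 2 (6 to 7 days after pollination), paternal nrpd1 endosperm with a wild-type Ler mother and an nrpd1a-4 Col father (3 libraries) was set against Ler by Col wild type (3 libraries). Each library pooled seeds from crosses among several plants, and both mutants rest on the single allele nrpd1a-4. Experiment 1 used stranded TruSeq libraries with paired reads of 100 bases, and experiment 2 SMARTer V4 libraries with single reads of 40 bases. RNA polymerase IV, whose largest subunit is the NRPD1 product, produces precursors of the small RNAs that guide DNA methylation.

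In photosynthesis, antenna proteins of the LHCB family pass light energy to photosystem II and those of the LHCA family pass it to photosystem I. Photosystem II (nuclear PSB subunits) withdraws electrons from water, and photosystem I (nuclear PSA subunits) passes electrons on to ferredoxin. The resulting energy drives the Calvin cycle, in which Rubisco fixes carbon dioxide once its activase RCA has cleared the active site. The genes are switched on together by light and by chloroplast development, and in Arabidopsis seeds chloroplasts have been described in the embryo, the endosperm and the seed coat.

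Because light-regulated genes of this kind are known to be controlled through short promoter elements, the 250 bases upstream of each annotated start were searched on both strands for the G-box CACGTG, the I-box GATAAG, the CCAAT box CCAAT and the TATA box TATAAA. The G-box was present in 9 of 45 members (20%), against 6.49% of 27443 protein-coding genes, and the I-box in 11 members (24.4%), against 12.3%. A CCAAT box stood in 29 members (64.4%), against 46% of all genes. By class it stood in 4 of 4 LHCA, 13 of 14 LHCB (92.9%), 7 of 12 PSA (58.3%) and 3 of 5 Rubisco genes (60%), but in 2 of 10 PSB genes (20%). A TATA box was present in 19 members (42.2%), against 47.3%. The 4 windows below are printed to show the range of motif content. LHCB1.3 and RBCS1A had the highest levels per length in experiment 1, PSBQ-2 carries 2 G-boxes, and PSAF carries 1 I-box and went opposite ways in the allele comparison of the 2 experiments. Each is given 5′ to 3′ on the strand of its gene, from the RefSeq assembly TAIR10.1, with matches on either strand in capitals, so that ATTGG is the CCAAT box and TTTATA the TATA box read from the other strand. A match is a match of letters and not a measured binding site. Only these windows were searched, so elements within an annotated gene or further upstream are not counted.
LHCB1.3, chr1:10477635-10477884, plus strand: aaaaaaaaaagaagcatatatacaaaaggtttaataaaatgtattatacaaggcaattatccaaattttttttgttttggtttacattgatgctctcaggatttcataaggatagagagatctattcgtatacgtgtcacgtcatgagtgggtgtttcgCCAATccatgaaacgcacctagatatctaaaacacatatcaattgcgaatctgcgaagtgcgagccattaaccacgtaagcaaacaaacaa
RBCS1A, chr1:25049668-25049917, minus strand: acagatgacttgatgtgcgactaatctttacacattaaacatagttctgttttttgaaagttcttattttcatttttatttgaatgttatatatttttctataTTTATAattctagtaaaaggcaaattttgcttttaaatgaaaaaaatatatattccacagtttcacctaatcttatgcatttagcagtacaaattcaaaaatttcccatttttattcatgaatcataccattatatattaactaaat
PSBQ-2, chr4:2673244-2673493, minus strand: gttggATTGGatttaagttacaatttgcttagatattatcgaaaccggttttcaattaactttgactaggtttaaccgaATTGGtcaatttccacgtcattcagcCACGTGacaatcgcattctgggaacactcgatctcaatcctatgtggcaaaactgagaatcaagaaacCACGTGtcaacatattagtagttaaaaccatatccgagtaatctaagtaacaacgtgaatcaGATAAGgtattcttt
PSAF, chr1:11216142-11216391, minus strand: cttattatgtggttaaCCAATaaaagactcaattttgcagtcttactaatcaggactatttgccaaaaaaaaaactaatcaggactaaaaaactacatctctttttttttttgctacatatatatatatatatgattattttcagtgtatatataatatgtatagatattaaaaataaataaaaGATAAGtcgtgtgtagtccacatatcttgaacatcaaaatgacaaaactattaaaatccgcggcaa
In these letters LHCB1.3 holds a CCAAT box alone, RBCS1A a TATA box alone, PSBQ-2 both G-boxes together with 1 I-box and 2 CCAAT boxes, and PSAF 1 CCAAT box and 1 I-box.

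Libraries held 15926510 to 20817788 counts in experiment 1 and 24845721 to 35629462 in experiment 2. Levels are given in CPM, counts per 1000000 after scaling by TMM factors (0.9445 to 1.025 in experiment 1, 0.7498 to 1.273 in experiment 2). In experiment 1, NRPD1 itself had 26.5, 22.0 and 30.7 CPM in homozygous nrpd1 against 47.5 and 39.6 CPM in its wild type. In experiment 2 it had 5.89, 1.79 and 4.17 CPM in paternal nrpd1 against 8.41, 10.4 and 10.4 CPM in wild type, so that each mutant library lay below each wild-type library. The same held for 17.3% of all features in experiment 1 and 6.37% in experiment 2. The log2 change was -0.72 (SE 0.16, edgeR adjusted p = 0.238) in homozygous and -1.30 (SE 0.46, edgeR adjusted p = 0.616) in paternal nrpd1, and neither was called. Replicate 2 of paternal nrpd1 (factor 0.7498) and replicate 1 of wild type (0.7894) stood apart from the other libraries of experiment 2, and the changes of total level in paternal nrpd1 are given with and without them. Among 10 endosperm markers, the summed level was 300.3 to 481 CPM in homozygous nrpd1 against 488 and 520.1 CPM in wild type, and 764 to 1930.5 CPM in paternal nrpd1 against 853 to 1787 CPM in wild type. Some endosperm markers, among them MINI3, PHE1 and IKU2, were at 0 in several libraries. The 16 seed coat markers summed to 1443 to 2011 CPM in homozygous nrpd1 against 1549.6 and 1849.6 CPM in wild type, and to 292 to 665 CPM in paternal nrpd1 against 461 to 531 CPM in wild type. The 12 embryo markers summed to 88.1 to 105 CPM in homozygous nrpd1 against 99.0 and 116 CPM in wild type, and to 20.1 to 69.8 CPM in paternal nrpd1 against 26.8 to 62.9 CPM in wild type, and CUC2 was at 0 in all 11 libraries. The seed coat and the embryo can both hold chloroplasts, and the part of these tissues in the values below was not tested.

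Together the 45 members took 2.34%, 2.28% and 2.48% of all counts in homozygous nrpd1, against 2.75% and 2.51% in wild type of experiment 1. In experiment 2 they took 4.72%, 5.46% and 3.72% of counts in paternal nrpd1, against 4.35%, 3.65% and 4.19% in wild type. The share was thus lower in all 3 homozygous nrpd1 libraries than in either wild-type library, whereas the groups of experiment 2 overlapped. In bulk tissue, fewer cells of a type and less RNA per cell cannot be told apart.

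Over all members together, levels per length in experiment 1 spanned more than 3 orders of magnitude, with RBCS1B and RBCS2B at the low end. Single classes could be far narrower. In wild type of experiment 1, LHCA genes lay between 476 and 653 CPM per kb, PSA genes between 174 and 804, and PSB genes between 183 and 1086. Per kb of exon, LHCB1.3, a subunit of the major trimeric antenna of photosystem II, was highest in experiment 1 at 1681 ± 191 CPM per kb in homozygous nrpd1 (SD, n = 3) and 1854 ± 16.8 in wild type (n = 2). RBCS1A, the main small subunit of Rubisco in leaves, came next at 1487 ± 122 CPM per kb in homozygous nrpd1 and 1602 ± 109 in wild type, and the SDs of these 2 genes overlapped in the mutant. LHCB1.5, PSBR, PSBO1 and PSAG followed in the same order in both genotypes. At the other end, RBCS1B and RBCS2B had 0.217 ± 0.081 and 0.401 ± 0.371 CPM per kb in homozygous nrpd1, and 0.458 ± 0.104 and 0.581 ± 0.193 in wild type, and LHCB1.4 had 2.93 ± 0.674 in homozygous nrpd1 and 2.96 ± 0.267 in wild type. In the mutant RBCS1B and RBCS2B did not differ beyond their spread.

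Several members are near-identical neighbours, and their counts are uncertain for that reason. LHCB1.1, LHCB1.2 and LHCB1.3 lie side by side on chromosome 1 between 10472280 and 10479114, and LHCB1.4 and LHCB1.5 on chromosome 2 between 14522524 and 14525918. RBCS1B, RBCS2B and RBCS3B lie on chromosome 5 between 15376988 and 15385320 (all TAIR10.1). LHCB1.1 and LHCB1.3 were 96.1% identical over their coding sequences, and RBCS1B and RBCS2B 97.3%. Of the 40-base stretches in its exons, the read length of experiment 2, 65.6% occurred at no other place in the genome for LHCB2.2, 72% for LHCB2.1, 74.8% for LHCB1.1 and 74.4% for RBCS2B. At 100 bases, the read length of experiment 1, these values were higher, at 86.3%, 89.3%, 95.6% and 100% in the same order. Antisense genes overlap 100% of the exon bases of LHCB1.5, 61.4% of PSAG, 53.3% of PSAH-1 and 40.6% of LHCB2.3. No source states whether counting used strand. LHCB1.5 had 1283, 1332 and 1398 CPM in homozygous nrpd1 and 1398 and 1222 CPM in wild type of experiment 1, but 0 counts in each of the 6 libraries of experiment 2, so it was not tested there. The cause of these zeros was not tested.

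The first comparison asked whether loss of RNA polymerase IV in both parents changed these genes. Of 45 members tested in homozygous nrpd1 against wild type, 39 had a lower fitted level and 6 a higher one, and the median log2 change was -0.14, against 0.0026 over all 18570 features, of which 49.5% were lower. The changes were small: 42 of 45 were under 0.5 on the log2 scale, with a median SE of 0.0921. No member passed an adjusted p of 0.05 in edgeR's quasi-likelihood test, which called 0.334% of all features. In 12 members (26.7%) the unadjusted p was under 0.05, against 11.7% of all features. All 3 mutant libraries lay below both wild-type libraries for 25 of 45 members, against 17.3% of all features, and above both for 0 members, against 15.8%. DESeq2 called 3 members, all lower (PSBO2, RCA and RBCS3B), against 2.54% of all features. On a deposited list of Col holdout genes are 9 of the 45 members: LHCA3, LHCB1.4, LHCB4.3, PSAG, PSAH2, PSBR, PSBY, RBCS1A and RCA. They were kept in the tests of totals. The 2 of them with enough allele counts, LHCA3 and PSAG, had almost no Ler counts in homozygous nrpd1. For listed members the part of strain sequence in the change of total level was not tested. Leaving out 1 library at a time gave medians between -0.16 and -0.10, with 31 of 45 members lower at the fewest, when replicate 1 of wild type was left out. Marker lists of other tissues differed in the same comparison. The median level of the 16 seed coat markers was 25.5, 21.9 and 17.0 CPM in homozygous nrpd1, against 15.7 and 12.1 CPM in wild type. Fitted levels were higher for 10 of 15 seed coat markers tested (median log2 change 0.27). Of the 15 seed coat markers, 4 lay wholly above wild type (26.7%, against 15.8% of all features) and 2 wholly below it (13.3%, against 17.3%). The median change went the other way in the other 2 marker lists. Fitted levels were lower for 5 of 7 endosperm markers tested (median -0.27) and for 3 of 3 embryo markers tested (-0.30), and no marker was called. Of the 7 endosperm markers, 2 lay wholly above wild type (28.6%, against 15.8% of all features) and 1 wholly below it (14.3%, against 17.3%). Of the 3 embryo markers, 0 lay wholly above and 0 wholly below. The part of tissue makeup in the members' lower levels was not tested.

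**Figure D1:**
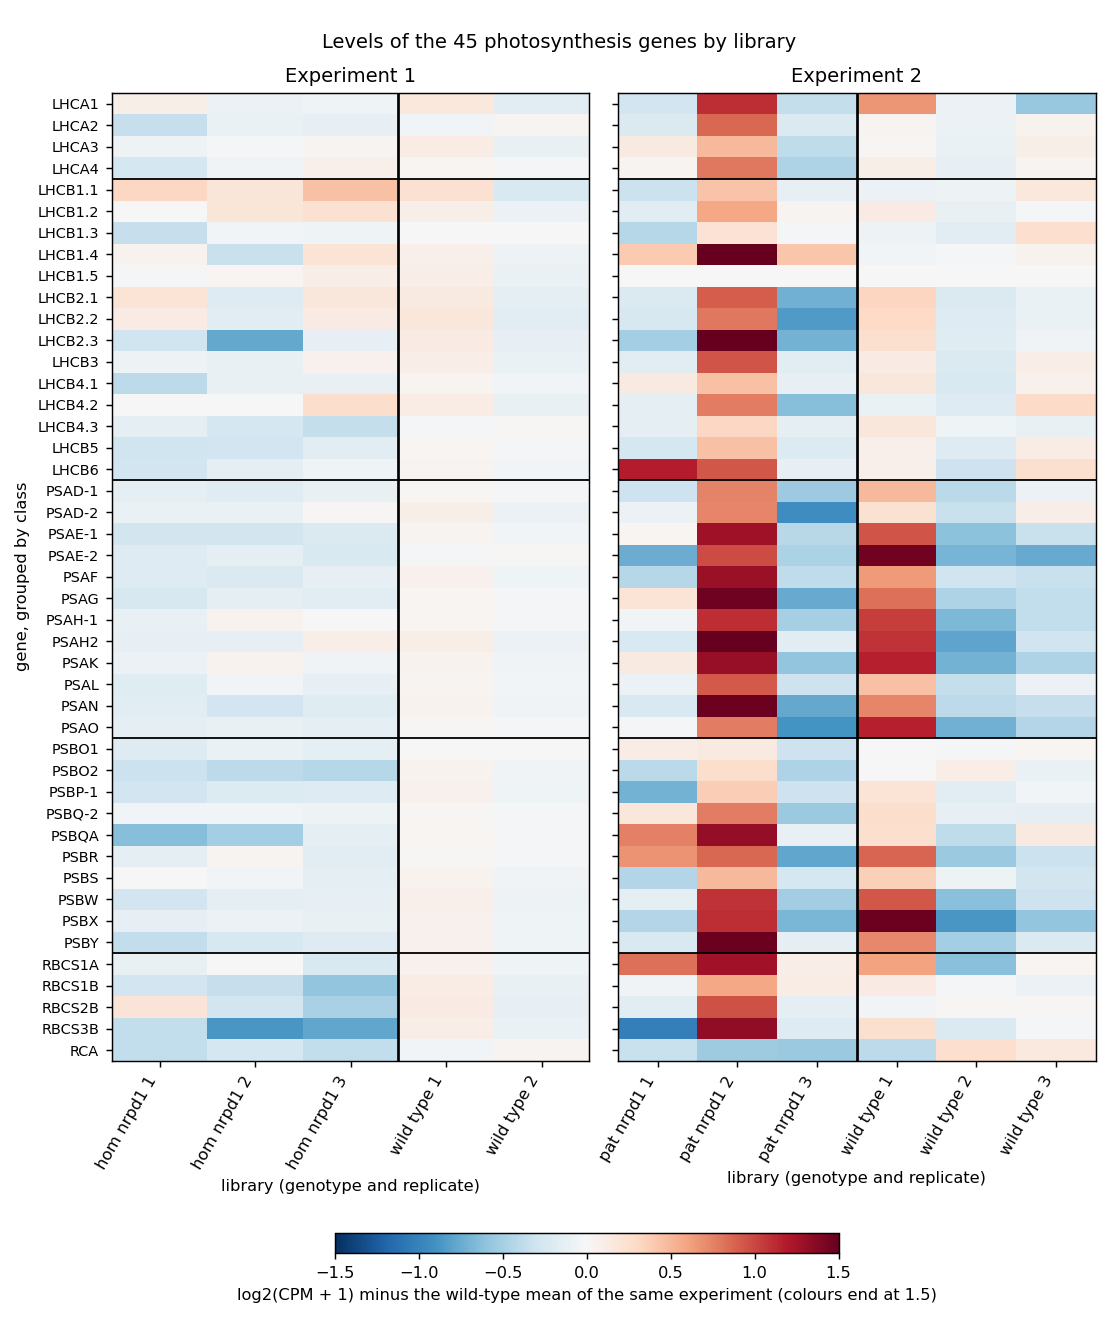
Level of each of the 45 genes (rows, grouped by class) in each library (columns), as log2(CPM + 1) minus the wild-type mean of the same experiment, with mutant libraries left of wild type. In experiment 1 most PSA, PSB and Rubisco rows are pale blue in the 3 homozygous nrpd1 libraries. In experiment 2 replicate 2 of paternal nrpd1 is red for most genes, short and long, and replicate 1 of wild type for most short genes. LHCB1.5 was at 0 throughout experiment 2.

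Members are taken by role, with positions on TAIR10.1. All 4 LHCA genes, the antenna of photosystem I, had a lower fitted level in homozygous nrpd1 (median log2 change -0.05). Among them LHCA2 alone (25%, against 17.3% of all features) was lower in each mutant library than in each wild-type library. LHCA2 (AT3G61470, chromosome 3 from 22745514 to 22747444) had 554, 657 and 646 CPM in homozygous nrpd1, against 684 and 724 CPM in wild type (log2 change -0.19, SE 0.10, edgeR adjusted p = 0.504). LHCA4 (AT3G47470, chromosome 3 from 17493343 to 17495033), the most abundant in CPM, had 704, 818 and 889 CPM in homozygous nrpd1, against 865 and 827 CPM in wild type (log2 change -0.07, SE 0.11, edgeR adjusted p = 0.806). LHCA3 (AT1G61520, chromosome 1 from 22699715 to 22701412) had the smallest change of the class, at 732, 756 and 795 CPM in homozygous nrpd1 against 834 and 714 CPM in wild type (log2 change -0.02, SE 0.10, edgeR adjusted p = 0.934). For LHCA3 and LHCA4 the groups overlapped, and leaving out a single library turned the sign of either.

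Of the 14 LHCB antenna genes of photosystem II, 8 had a lower and 6 a higher fitted level, and the 6 higher ones (LHCB1.1, LHCB1.2, LHCB1.5, LHCB2.1, LHCB2.2 and LHCB4.2) were the only members with a positive change in this comparison. For 6 of the 14 (42.9%, against 17.3% of all features), all mutant libraries lay below both wild-type libraries. LHCB1.3 (AT1G29930, chromosome 1 from 10477885 to 10479114), the highest in CPM, had 1797, 2217 and 2189 CPM in homozygous nrpd1, against 2295 and 2266 CPM in wild type (log2 change -0.14, SE 0.11, edgeR adjusted p = 0.633). Its neighbour and near copy LHCB1.1 (AT1G29920, chromosome 1 from 10474656 to 10475969) had 628, 575 and 684 CPM in homozygous nrpd1, against 591 and 432 CPM in wild type (log2 change 0.30, SE 0.16, edgeR adjusted p = 0.491), the highest positive change of the 45 members. Replicate 1 of wild type lay within the mutant range for LHCB1.1 and replicate 2 below it. The lowest LHCB change was that of LHCB2.3 (AT3G27690, chromosome 3 from 10255906 to 10257489), with 34.6, 24.7 and 39.1 CPM in homozygous nrpd1 against 46.5 and 39.2 CPM in wild type (log2 change -0.39, SE 0.20, edgeR adjusted p = 0.495). LHCB5 (AT4G10340, chromosome 4 from 6408007 to 6409849), a monomeric antenna protein next to the photosystem II core, had 871, 876 and 962 CPM in homozygous nrpd1 against 1092 and 1054 CPM in wild type (log2 change -0.25, SE 0.08, edgeR adjusted p = 0.367). LHCB2.3 and LHCB5 were each lower in all mutant libraries without reaching the threshold. LHCB5, and PSAE-2 among the PSA genes, were chosen after their values were seen.

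All 12 PSA genes of photosystem I had a lower fitted level (median log2 change -0.14). For 7 of them (58.3%, against 17.3% of all features) the mutant lay below wild type without overlap. PSAE-1 (AT4G28750, chromosome 4 from 14202758 to 14204061), which encodes a subunit on the stromal side near the ferredoxin docking site, had 246, 245 and 256 CPM in homozygous nrpd1, against 305 and 289 CPM in wild type (log2 change -0.25, SE 0.07, edgeR adjusted p = 0.329). Its paralogue PSAE-2 (AT2G20260, chromosome 2 from 8736734 to 8737767) had 187, 194 and 182 CPM in homozygous nrpd1, against 210.0 and 216 CPM in wild type (log2 change -0.19, SE 0.07, edgeR adjusted p = 0.421). Both PSAE genes were thus below wild type in each library by a similar step. PSAL (AT4G12800, chromosome 4 from 7521257 to 7522761), needed for docking of the mobile antenna and the highest PSA gene in CPM, had 610.1, 677 and 634 CPM in homozygous nrpd1 against 716 and 672 CPM in wild type (log2 change -0.12, SE 0.08, edgeR adjusted p = 0.595). PSAH-1 (AT3G16140, chromosome 3 from 5467987 to 5469594), another subunit of that docking side, had 357, 400.3 and 385 CPM in homozygous nrpd1 against 393 and 376 CPM in wild type (log2 change -0.01, SE 0.08, edgeR adjusted p = 0.958). For PSAL and PSAH-1 the genotypes overlapped.

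All 10 PSB genes of photosystem II had a lower fitted level as well (median -0.16). The mutant lay below wild type without overlap for 8 of them (80%, against 17.3% of all features). PSBO1 and PSBO2 encode the protein that stabilises the manganese cluster where water is split. PSBO1 (AT5G66570), the highest of the class in CPM, had 1219, 1303 and 1269 CPM in homozygous nrpd1, against 1382 and 1403 CPM in wild type (log2 change -0.14, SE 0.07, edgeR adjusted p = 0.489). PSBO2 (AT3G50820, chromosome 3 from 18890874 to 18892508) had 291, 279 and 271 CPM in homozygous nrpd1, against 380.2 and 352 CPM in wild type (log2 change -0.38, SE 0.08, edgeR adjusted p = 0.199). The gap between the PSBO2 groups was wider than the range within either, its adjusted p was the smallest among the members, and DESeq2 called it (adjusted p = 0.00187). PSBQA (AT4G21280, chromosome 4 from 11334352 to 11335815), a peripheral subunit of the oxygen-evolving complex, had the lowest change of the class, at 117, 127 and 165 CPM in homozygous nrpd1 against 185 and 179 CPM in wild type (log2 change -0.42, SE 0.16, edgeR adjusted p = 0.406). Its paralogue PSBQ-2 (AT4G05180, chromosome 4 from 2671523 to 2673243) had the change nearest to 0, at 611, 610.5 and 598 CPM in homozygous nrpd1 against 639.6 and 621 CPM in wild type (log2 change -0.05, SE 0.07, edgeR adjusted p = 0.762). Replicate 3 of the mutant was nearer to wild type for PSBQA than the other mutant libraries.

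The 5 Rubisco genes all had a lower fitted level, 3 of them without overlap (60%, against 17.3% of all features), although 2 rest on few counts. RBCS1A (AT1G67090, chromosome 1 from 25048158 to 25049667), by far the most abundant small-subunit gene, had 1881, 2042 and 1733 CPM in homozygous nrpd1, against 2129 and 1934 CPM in wild type (log2 change -0.11, SE 0.10, edgeR adjusted p = 0.677), with overlapping groups. RBCS3B (AT5G38410, chromosome 5 from 15376988 to 15378642) had 56.6, 39.6 and 42.3 CPM in homozygous nrpd1, against 78.8 and 68.1 CPM in wild type (log2 change -0.67, SE 0.17, edgeR adjusted p = 0.287). Among genes above 10 CPM this was the lowest change of any member, and DESeq2 called it (adjusted p = 0.0391), though its sequence is shared in part with RBCS1B and RBCS2B. RCA (AT2G39730, chromosome 2 from 16570746 to 16573692), the Rubisco activase, had 232, 249 and 232 CPM in homozygous nrpd1, against 291 and 307 CPM in wild type (log2 change -0.33, SE 0.08, edgeR adjusted p = 0.258), and DESeq2 called it as well (adjusted p = 0.0127). RBCS1B (AT5G38430, chromosome 5 from 15383167 to 15385320) had 0.528, 0.469 and 0.238 CPM in homozygous nrpd1 and 1.01 and 0.728 CPM in wild type (log2 change -1.09, SE 0.47, edgeR adjusted p = 0.441), levels of a few reads, and RBCS2B was as low. PSBO2, RBCS3B and RCA were singled out after their values were seen. RBCS1A and RCA are on the Col holdout list.

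**Figure D2:**
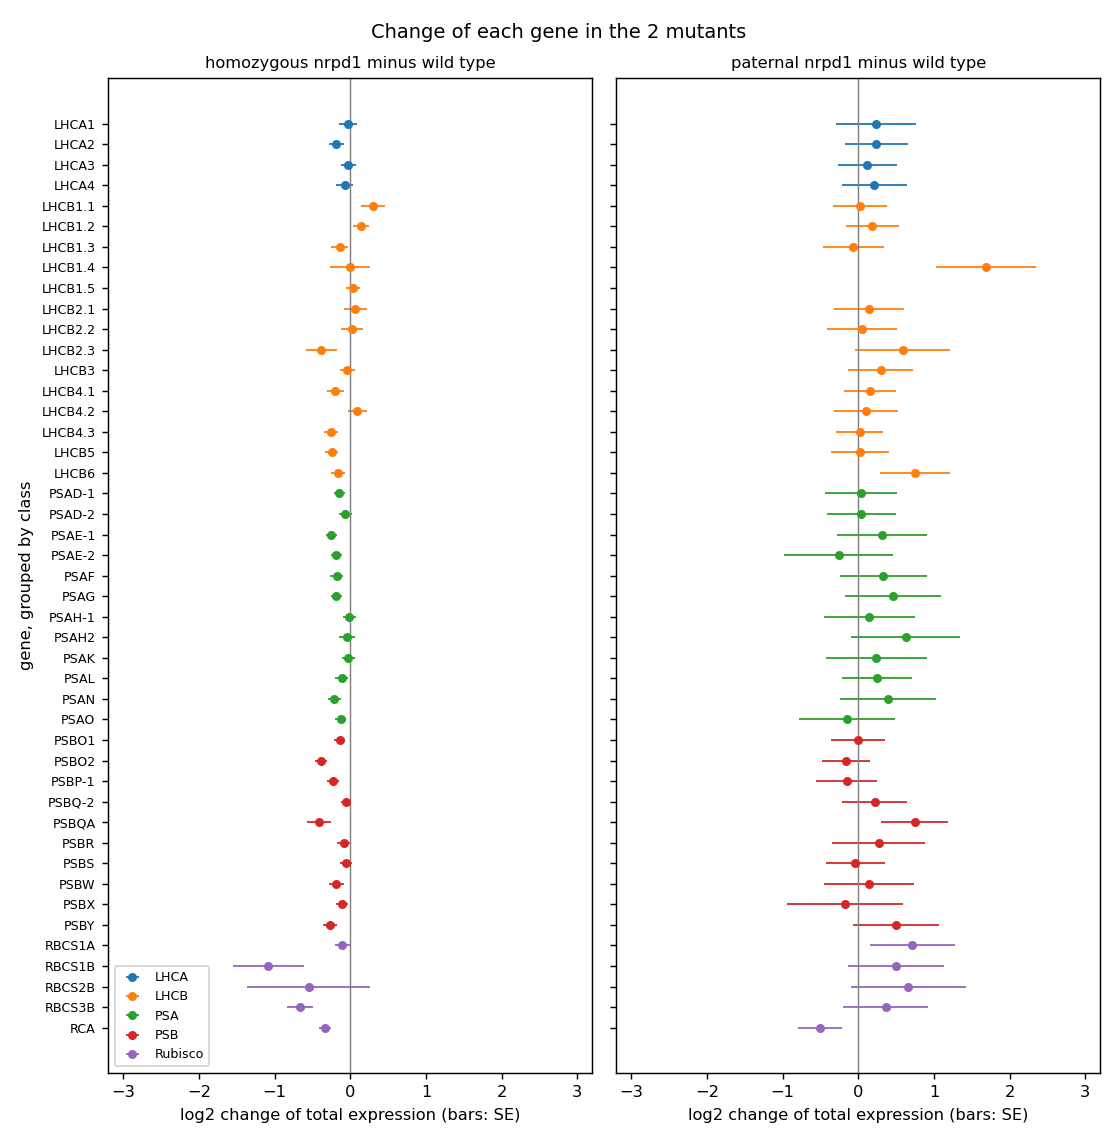
Log2 change of total expression (point) with its SE (bar) for each gene in homozygous nrpd1 minus wild type (left) and paternal nrpd1 minus wild type (right), coloured by class. On the left 39 of 45 points lie below 0 with narrow bars, and on the right 35 of 44 lie above 0 with bars that mostly cross it; LHCB1.5 has no point on the right.

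Genes of neighbouring pathways were also mostly lower in homozygous nrpd1, and none was called. Fitted levels were lower for 16 of 19 Calvin cycle genes (median log2 change -0.20), for 19 of 24 genes of chlorophyll synthesis (-0.22) and for 13 of 14 genes of electron transport and ATP synthase (-0.14). They were lower for 8 of 8 genes of thylakoid assembly (-0.19) and for 6 of 8 regulators (-0.21). The genotypes did not overlap, with the mutant lower, for 17.3% of all features. The same held for 10 of 19 Calvin cycle genes (52.6%), 15 of 24 chlorophyll synthesis genes (62.5%) and 8 of 14 electron transport genes (57.1%). It also held for 6 of 8 assembly genes (75%) and 3 of 8 regulators (37.5%). In the other direction the genotypes did not overlap for 3 chlorophyll synthesis genes and 1 regulator (12.5% of either list), against 15.8% of all features. HEMA1, the gene of the first committed enzyme of the tetrapyrrole pathway, went against its list at 159, 155 and 216 CPM in homozygous nrpd1 and 120.0 and 128 CPM in wild type (log2 change 0.52, SE 0.17, edgeR adjusted p = 0.363). SIGC, a sigma factor of the chloroplast RNA polymerase, had 18.3, 15.2 and 21 CPM in homozygous nrpd1 against 25.8 and 24.1 CPM in wild type (log2 change -0.46, SE 0.15, edgeR adjusted p = 0.372). CPSRP54, part of the particle that delivers antenna proteins to thylakoids, had 78.1, 83 and 94.9 CPM in homozygous nrpd1 against 114 and 105 CPM in wild type (log2 change -0.36, SE 0.11, edgeR adjusted p = 0.339). All 3 had groups that did not overlap. FD1 of electron transport (log2 change -0.39, SE 0.18, edgeR adjusted p = 0.462) and the Calvin cycle gene AT2G45290 (log2 change 0.92, SE 0.55, edgeR adjusted p = 0.539) had the widest changes of their lists, with overlapping groups.

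The second comparison asked whether a mutant father alone had an effect. Of 44 members tested in paternal nrpd1 against wild type, 35 had a higher and 9 a lower fitted level, with a median log2 change of 0.20, against 0.0148 over all 18901 features. No member was called by edgeR, nor was any feature (0% of all tested). DESeq2 called 0 members, against 0.0313% of all features. LHCB1.4 was the single member with an unadjusted p under 0.05, against 7.91% of all features. It was also the single member whose 3 mutant libraries all exceeded the 3 wild-type libraries, against 6.58% of all features, and for none were they all below, against 6.37%. The positive median rested on replicate 2 of paternal nrpd1: without it 38 of 44 members were lower and the median was -0.36, and without it and replicate 1 of wild type together 27 were lower and the median was -0.13. Without replicate 1 of wild type alone, 38 were higher and the median was 0.49.

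Replicate 2 of paternal nrpd1 and replicate 1 of wild type were high for most members within their own groups. Among 42 members with a sufficient level, replicate 2 of paternal nrpd1 was the highest library of its group for 40, with a median log2 ratio of 1.13 to the other 2 libraries, whereas over 14551 features it was the highest for 32.9% (median -0.19). Replicate 1 of wild type was the highest for 31 of 42 (median 0.38), against 36.8% of all features (median -0.15). Over all features the ratio fell with summed exon length, with a Spearman correlation of -0.69 for the mutant library and -0.75 for the wild-type library, and over the members with -0.45 and -0.69. Those correlations describe genes that share a library and are given without a test. For exons under 1000 bases in sum, the mutant library was the highest for 11 of 11 members against 90.4% of all features, and the wild-type library for 11 of 11 against 94.0%. For longer genes, the mutant library was the highest for 29 of 31 members (93.5%) against 24.7% of all features, and the wild-type library for 20 of 31 (64.5%) against 28.7%. The part of transcript length or of the library in these levels was not tested.

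**Figure D3:**
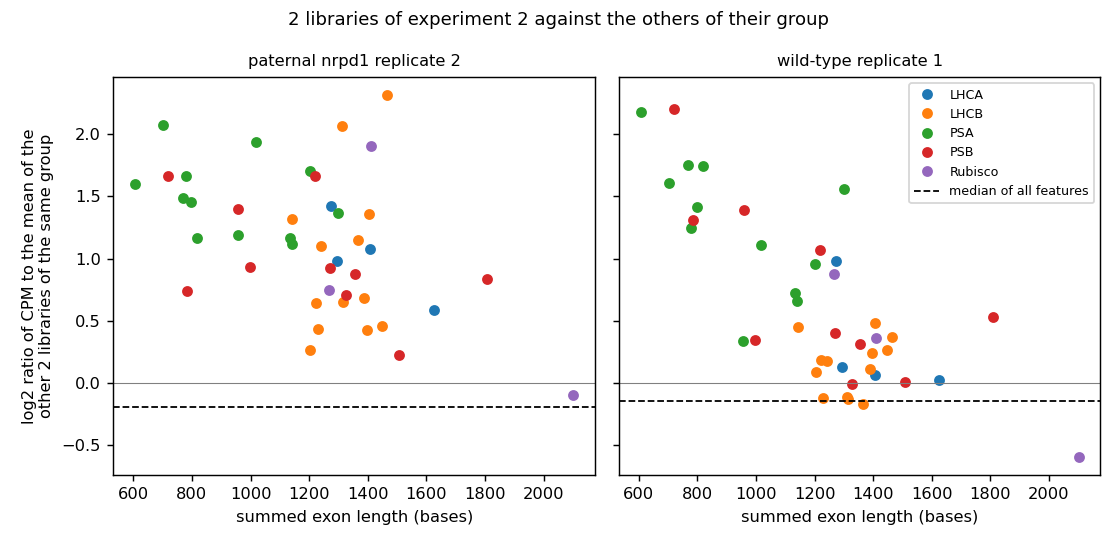
Log2 ratio of CPM in replicate 2 of paternal nrpd1 (left) and in replicate 1 of wild type (right) to the mean of the other 2 libraries of the same group, against summed exon length, for 42 members coloured by class. Short PSA and PSB genes lie highest on the right. On the left LHCB2.3 (1465 bases), PSAH2 (702 bases) and LHCB1.4 (1312 bases) lie highest. Longer members remain mostly above the median of all features (dashed, -0.19 and -0.15) on the left, and RCA, the longest, lies below 0 in both.

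Single genes of experiment 2 showed the same spread. PSBX (AT2G06520, chromosome 2 from 2587729 to 2588448), a small subunit of photosystem II, had 862, 2512 and 725 CPM in paternal nrpd1, against 3233, 635 and 771 CPM in wild type (log2 change -0.18, SE 0.76, edgeR adjusted p = 0.939). The high values were those of replicate 2 of the mutant and replicate 1 of wild type, and the same held for PSAE-2 at 69.8, 234 and 84.5 CPM in paternal nrpd1 and 322, 72.6 and 69.7 CPM in wild type (log2 change -0.26, SE 0.72, edgeR adjusted p = 0.905). PSAH2 (AT1G52230, chromosome 1 from 19454798 to 19455668), the highest PSA change, had 316, 1356 and 327 CPM in paternal nrpd1 against 784, 213 and 300.3 CPM in wild type (log2 change 0.62, SE 0.73, edgeR adjusted p = 0.767). Without replicate 2 of the mutant its change was -0.43. PSAL had 756, 1526 and 649.6 CPM in paternal nrpd1 against 1093, 629 and 758 CPM in wild type (log2 change 0.24, SE 0.46, edgeR adjusted p = 0.86), again with replicate 2 as the single high mutant library. PSBR (AT1G79040, chromosome 1 from 29735952 to 29737009), a subunit beside the oxygen-evolving complex and the highest PSB gene in CPM, had 6201, 7050.2 and 2257 CPM in paternal nrpd1 against 7135, 2645 and 3106 CPM in wild type (log2 change 0.27, SE 0.61, edgeR adjusted p = 0.883). PSBQA, the highest PSB change, had 465, 684 and 254 CPM in paternal nrpd1 against 325, 209.8 and 302 CPM in wild type (log2 change 0.75, SE 0.44, edgeR adjusted p = 0.627). In PSBR and PSBQA replicate 1 of the mutant was high along with replicate 2.

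Replicate 2 of paternal nrpd1 had a median log2 ratio to the other libraries of its group of 1.03 for LHCA, 0.68 for LHCB and 1.47 for PSA genes, and replicate 1 of wild type one of 0.09 for LHCA, 0.17 for LHCB and 1.33 for PSA genes. LHCA3, the highest LHCA gene in CPM, had 1394, 1776 and 973 CPM in paternal nrpd1 against 1283, 1179 and 1348 CPM in wild type (log2 change 0.12, SE 0.39, edgeR adjusted p = 0.921), and LHCA2 had 504, 1063 and 505 CPM against 603, 549 and 607 CPM (log2 change 0.24, SE 0.41, edgeR adjusted p = 0.847). LHCB1.3 had 2034, 3171 and 2670.3 CPM in paternal nrpd1 against 2599, 2418 and 3242 CPM in wild type (log2 change -0.07, SE 0.40, edgeR adjusted p = 0.955). For these 3 genes the groups overlapped widely. LHCB1.4 (AT2G34430, chromosome 2 from 14524607 to 14525918) had 2.12, 8.99 and 2.16 CPM in paternal nrpd1 against 1.3, 1.35 and 1.47 CPM in wild type (log2 change 1.68, SE 0.66, edgeR adjusted p = 0.616), a gene of few counts with close relatives, highest in replicate 2. LHCB6 (AT1G15820, chromosome 1 from 5446462 to 5447880), a minor antenna protein, had 3141, 2652 and 1269.5 CPM in paternal nrpd1 against 1458, 1119 and 1632 CPM in wild type (log2 change 0.75, SE 0.46, edgeR adjusted p = 0.632), high in mutant replicates 1 and 2 and within the wild-type range in replicate 3. RBCS1A, the highest member of all in CPM in this experiment, had 18453, 24918 and 11209 CPM in paternal nrpd1 against 15912, 6739 and 10618 CPM in wild type (log2 change 0.71, SE 0.56, edgeR adjusted p = 0.675). RCA had the lowest change of the 44 members, at 70.4, 61.1 and 60.4 CPM in paternal nrpd1 against 67.6, 106 and 98.6 CPM in wild type (log2 change -0.50, SE 0.29, edgeR adjusted p = 0.625). Its groups overlapped through replicate 1 of wild type. LHCB6 was singled out after its values were seen. Without replicate 2 of paternal nrpd1 and replicate 1 of wild type, the log2 change was 0.72 for RBCS1A, 0.63 for LHCB6, 0.55 for LHCB1.4, 0.50 for PSBR, 0.44 for PSBQA and 0.27 for PSAH2. It was -0.32 for LHCB1.3 and -0.70 for RCA, and edgeR called no member there.

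Companion lists in paternal nrpd1 had medians of either sign. Fitted levels were lower for 17 of 24 genes of chlorophyll synthesis (median log2 change -0.19), 7 of 8 regulators (-0.36) and 6 of 8 thylakoid assembly genes (-0.28), and none was called. Calvin cycle genes were lower for 8 of 18 (0.10) and electron transport genes for 5 of 14 (0.20). GUN5, a subunit of the magnesium chelatase of chlorophyll synthesis and a long transcript, had 189.5, 87.6 and 101 CPM in paternal nrpd1 against 172, 408 and 423 CPM in wild type (log2 change -1.41, SE 0.48, edgeR adjusted p = 0.616). HY5, a transcription factor that binds G-boxes in light-regulated promoters, had 11.5, 23.2 and 14.4 CPM in paternal nrpd1 against 12.9, 5.06 and 4.68 CPM in wild type (log2 change 1.12, SE 0.49, edgeR adjusted p = 0.616). For GUN5 and HY5 replicate 1 of wild type lay within the mutant range. VAR1, a thylakoid protease subunit, had 44.7, 29.8 and 42.3 CPM in paternal nrpd1 against 51.7, 96.8 and 75.9 CPM in wild type (log2 change -0.94, SE 0.33, edgeR adjusted p = 0.616), with no overlap. ATPD of the ATP synthase (log2 change 0.70, SE 0.47, edgeR adjusted p = 0.651) and EMB3119 of the Calvin cycle (log2 change 0.63, SE 0.38, edgeR adjusted p = 0.629) had the widest changes of their lists. Without replicate 2 of paternal nrpd1 and replicate 1 of wild type, lower levels were fitted for 18 of 24 chlorophyll synthesis genes (median -0.25), 8 of 9 regulators (-0.37), 6 of 8 thylakoid assembly genes (-0.47), 9 of 18 Calvin cycle genes (-0.0058) and 7 of 14 electron transport genes (-0.0222), and none was called. The log2 change without them was -1.57 for GUN5, 1.36 for HY5, -1.04 for VAR1, 0.49 for ATPD and 0.80 for EMB3119.

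The effects of the 2 mutants on these genes were then set against each other in 1 fit of all 11 libraries, in which kit, read length and mutant parent change together and cannot be told apart. The homozygous effect minus the paternal effect was negative for 39 of 45 members (median log2 -0.28). No member passed the threshold, nor did any feature (0% of 20078), and 0 members had an unadjusted p under 0.05, against 7.31% of all features. DESeq2 called 0 members, against 0.442% of all features. Without replicate 2 of paternal nrpd1 the difference was positive for 34 of 45 members (median 0.17), so its sign also rested on that library.

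The remaining data concern the parents' alleles. A gene's maternal share here is the part of its allele-assigned counts carrying Ler, in percent, and 2 maternal copies to 1 paternal give 66.7%. Since no cross was made in the other direction, parent and strain cannot be told apart. Many members could not be assayed, including the most abundant: in experiment 1, 11 members had no allele-assigned count and 12 had a mean under 20 per library, and in experiment 2, 16 and 7. Among them were RBCS1A, RCA, PSBR and LHCB1.3 in both experiments. Of the 22 members at the minimum in experiment 1, LHCA3 and PSAG are on the deposited Col holdout list and were left out of the tests. Their Ler shares were at or below 0.0592% in each homozygous nrpd1 library, against 68.9% and 67.9% (LHCA3) and 67% and 66.6% (PSAG) in wild type. A Ler share is a maternal share only where the mother carries Ler sequence. That was not checked for listed genes, so these values are not read as a loss of maternal transcript. In experiment 2, where the list does not apply, LHCA3 had 64.8%, 64.2% and 64.4% in paternal nrpd1 and 65.4%, 66.2% and 62.9% in wild type.

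No member's maternal share passed the test in either mutant. In homozygous nrpd1 the fitted share was higher for 19 of 20 members tested and lower for 1, against 84.9% higher over all 8417 genes, so this direction was common over all genes. edgeR called 0 members, against 0.107% of genes, and 0 had an unadjusted p under 0.05, against 7.71%. For 6 of 20 all mutant shares exceeded both wild-type shares, against 31.4% of genes. The members' median share was 64.8%, 68.7% and 65.8% in homozygous nrpd1, against 65.0% and 63.5% in wild type, and that of all genes was 70.5%, 75.9% and 68.8% against 66.9% and 67.2%. In paternal nrpd1, 13 of 22 shares were higher and 9 lower, against 58.0% higher over all 7371 genes. Here edgeR called 0 members, against 0.0678% of genes, and 1, PSBW, had an unadjusted p under 0.05, against 5.25%. The groups did not overlap, with the mutant above, for PSBW and LHCA2, against 7.54% of genes. The members' median share was 66.2%, 64.0% and 64.3% in paternal nrpd1, against 64.1%, 64.0% and 64.1% in wild type.

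PSBW (AT2G30570, chromosome 2 from 13019028 to 13020311), a small subunit of photosystem II, had maternal shares of 63.3%, 68.7% and 64.4% in homozygous nrpd1, against 60.7% and 59.9% in wild type (log2 change of the Ler to Col ratio 0.32, SE 0.21, edgeR adjusted p = 0.592). In experiment 2 they were 60.9%, 61.2% and 60.1% in paternal nrpd1, against 54.4%, 55.7% and 57% in wild type (log2 change of the Ler to Col ratio 0.30, SE 0.11, edgeR adjusted p = 0.852). Neither difference passed the threshold, although the groups did not overlap in either experiment. All mutant shares also exceeded all wild-type shares for 31.4% of genes in experiment 1 and for 7.54% in experiment 2. Over all genes tested the median log2 change of this ratio was 0.33 in homozygous nrpd1, near that of PSBW, and 0.07 in paternal nrpd1. PSBW was singled out after its values were seen.

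In wild type the shares of a few members differed from 2 to 1. In experiment 1, 6 of 21 members were less maternal, against 18.5% of genes, and 1 was more maternal, against 12.2%. In experiment 2, 5 of 22 members were less maternal, against 12.2% of genes, and 1 was more maternal, against 9.9%. LHCB4.2, LHCB6, PSBW and PSBQ-2 were less maternal in both experiments. LHCB4.2 (AT3G08940, chromosome 3 from 2717557 to 2718923), a minor antenna gene, had shares of 39.9%, 44.2% and 37.1% in homozygous nrpd1, against 37.8% and 35.2% in wild type of experiment 1 (wild type against 2 to 1: log2 -1.80, SE 0.07, edgeR adjusted p = 5.41e-05). In experiment 2 it had 59.5%, 57.3% and 55.6% in paternal nrpd1, against 59.5%, 55.7% and 53.8% in wild type (wild type against 2 to 1: log2 -0.64, SE 0.06, edgeR adjusted p = 1.15e-06). Genes within 500 kb of LHCB4.2 had wild-type medians of 68.0% and 69.3% in experiment 1, above those of LHCB4.2 itself. LHCB6 had 42.7% and 44.3% in wild type of experiment 1 (log2 -1.38, SE 0.07, edgeR adjusted p = 8.92e-05) and 58%, 57.8% and 56% in experiment 2 (log2 -0.58, SE 0.06, edgeR adjusted p = 9.25e-07). Both genes lay nearer to 2 to 1 in experiment 2, a difference between experiments that was not tested.

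Other members also departed from 2 to 1 in wild type. LHCA4 had 54% and 53.2% in experiment 1 (log2 -0.79, SE 0.05, edgeR adjusted p = 0.000252) and did not pass the threshold in experiment 2 (log2 -0.14, SE 0.06, edgeR adjusted p = 0.0883). PSBQ-2 had 61.5% and 61.9% (log2 -0.31, SE 0.06, edgeR adjusted p = 0.00866) and 62.3%, 61% and 61.9% (log2 -0.31, SE 0.05, edgeR adjusted p = 0.000421) in experiments 1 and 2. PSBW passed in experiment 1 (log2 -0.40, SE 0.07, edgeR adjusted p = 0.0061) and in experiment 2 (log2 -0.67, SE 0.07, edgeR adjusted p = 2.43e-06). PSAF (AT1G31330), which binds plastocyanin to photosystem I, was less maternal in experiment 1 at 63% and 61.1% (log2 -0.29, SE 0.05, edgeR adjusted p = 0.00556) and more maternal in experiment 2 at 70.5%, 70.2% and 67.9% (log2 0.19, SE 0.05, edgeR adjusted p = 0.0143). The call in experiment 2 was lost without replicate 1 or without replicate 2 of wild type. PSBS (AT1G44575, chromosome 1 from 16870221 to 16873427), the sensor of excess light in photosystem II, was more maternal in experiment 1 at 69.1% and 70.1% (log2 0.20, SE 0.04, edgeR adjusted p = 0.0169), and PSAD-1 (AT4G02770, chromosome 4 from 1229031 to 1230164) was less maternal in experiment 2 at 64.4%, 65.2% and 63.2% (log2 -0.15, SE 0.05, edgeR adjusted p = 0.0251), a call lost without any 1 of the 3 libraries.

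**Figure D4:**
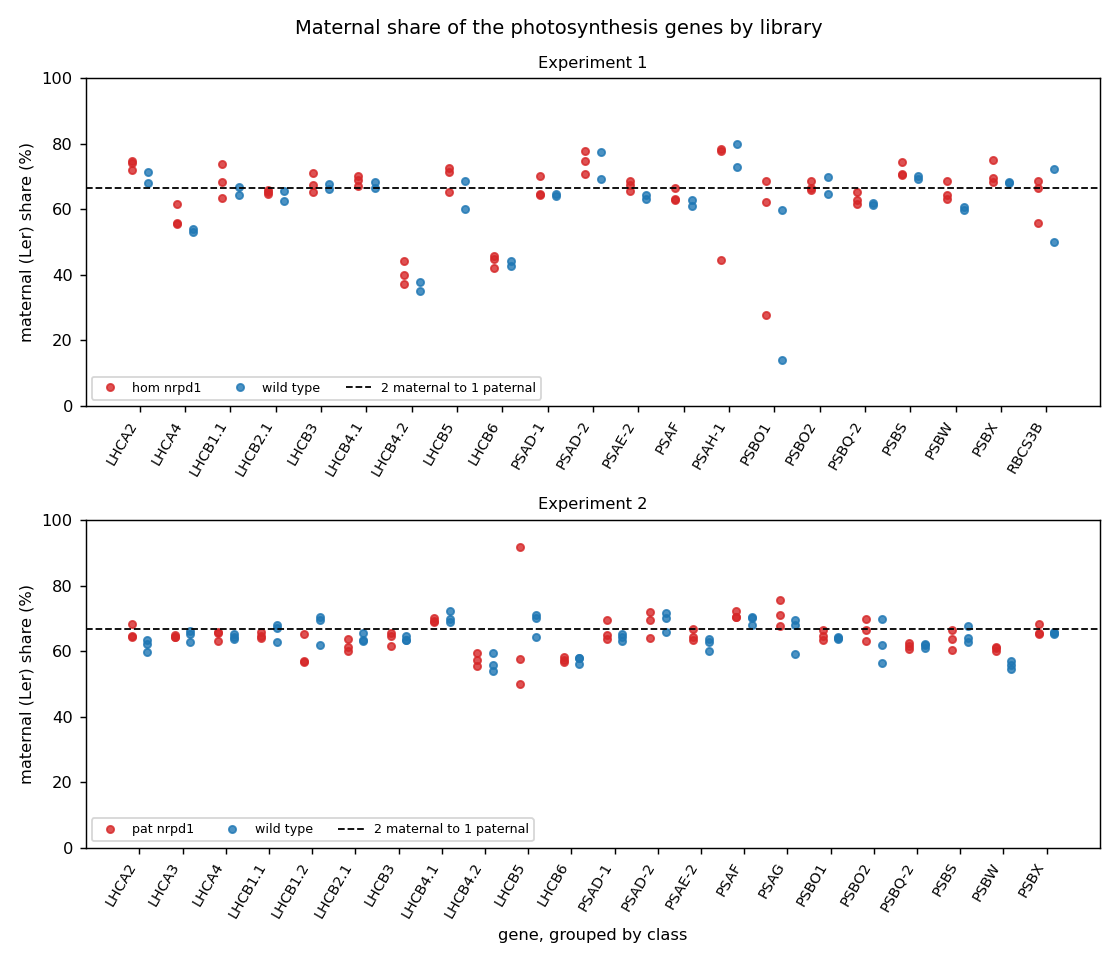
Maternal share (percentage of allele-assigned counts that are Ler) of each member tested against 2 to 1, by library, with mutant libraries (red) left of wild type (blue) and the 66.7% of 2 maternal to 1 paternal copies dashed. LHCB4.2 and LHCB6 lie below the line in every library, and PSBO1 is low in 1 mutant and 1 wild-type library of experiment 1.

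PSBO1 shares differed between libraries of the same genotype. They were 62.2%, 68.7% and 27.7% in homozygous nrpd1, against 59.8% and 14.1% in wild type (log2 change of the Ler to Col ratio 1.19, SE 0.85, edgeR adjusted p = 0.605). Replicate 3 of the mutant had 1140 of 4118 allele counts from Ler (Wilson 95% interval 26.3% to 29.1%) and replicate 2 of wild type 617 of 4363 (13.1% to 15.2%), intervals that cover counting error only. PSBO1 lies near the end of chromosome 5 (26568572 to 26570461), and genes within 500 kb of it had medians of 70.5%, 76.7% and 43.1% in homozygous nrpd1 and of 66.9% and 17.6% in wild type. The low shares were thus shared by neighbouring genes in the same 2 libraries. Between 25 and 26 Mb of the chromosome the medians were 72.2%, 76.7% and 69.8% in the mutant and 68.6% and 68.1% in wild type. The log2 change of the Ler to Col ratio was -0.39 without replicate 2 of wild type and 2.79 without replicate 1. Without both low libraries it was 0.35 (SE 0.47), and in experiment 2 all 6 shares of PSBO1 lay between 63.5% and 66.6%. What set these 2 libraries apart at this end of the chromosome was not tested. The total level of PSBO1, given above, was lower by a similar step in all 3 mutant libraries.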

How the data were processed

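For 11 mRNA-seq libraries the authors deposited raw counts per feature, of all reads and of reads that matched Col or Ler. TopHat, HTSeq, cutadapt, Trim Galore, FastQC and TAIR10 are named, unversioned, per the submitters' processing notes. How alleles were assigned and whether strand was used are not given in the sources used here. A deposited list of 5081 gene identifiers with no measurement (unit other, per the labels of experiment 1) was left out of allele tests in experiment 1. The 5 summary lines of the experiment 2 tables (11.6% to 13.3% of counts) were left out.

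Totals were tested in edgeR 4.0.16 (R 4.3.3; TMM, filterByExpr, quasi-likelihood, two-sided) within each experiment, with Benjamini-Hochberg adjustment over all features and a threshold of 0.05. Log2 changes are mutant minus wild type. Shares were tested as the interaction of allele and genotype in Ler and Col counts, with library terms, where the mean allele count reached 20. Wild-type shares were tested against an offset of 2 to 1. The tests were tried on simulated data first. DESeq2 1.42.0, other size factors, filters, minimums and left-out libraries were alternatives. Replicates are separate samples per the labels, so p-values measure the spread between these samples, and allele intervals cover counting error only. Positions, exons and upstream sequences come from RefSeq TAIR10.1, in which 45 of 45 members matched by locus, and are not coordinates of the files.

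Members and gene lists were chosen with earlier results of these data known. Named in each class and comparison were the member with the highest mean CPM, those with the highest and lowest change, every member past a threshold and, per companion list, the gene with the widest change, and members chosen after their values were seen are said to be so.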

Additional observations from a re-analysis of the deposited data

How the results depend on the processing

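The median changes of the members kept their sign under other size factors, no low-count filter, DESeq2 and 1 fit of all 11 libraries, and the exceptions under left-out libraries stand beside the results above. Features called in homozygous nrpd1 numbered 62, against 524 with DESeq2 (3 members), 12 in the fit of all 11 libraries, 302 with a replicate block and 0 to 44 with 1 library left out. The count was 6 without replicate 1 and 34 without replicate 3 of homozygous nrpd1, and 0 without either replicate of wild type. In paternal nrpd1 the count was 0, against 8 with DESeq2 and 1 in the fit of all libraries. For the difference between the mutants it was 0, against 1 without the filter, 89 with DESeq2 and 0 to 1 with 1 library left out. Shares called in homozygous nrpd1 numbered 9, against 230 with the block (1 member, PSBO1, log2 1.93, edgeR adjusted p = 3.08e-05), 732 with the listed genes kept (2 members, LHCA3 and PSAG), 42 without replicate 3 of the mutant and replicate 2 of wild type, and 7 to 129 with 1 library left out (0 to 1 members; 23 without replicate 3 of the mutant, 129 without replicate 1 and 22 without replicate 2 of wild type). Shares called in paternal nrpd1 numbered 5, against 3 at a minimum of 50 counts, 2 without replicate 2 of the mutant and replicate 1 of wild type, and 2 to 10 with 1 library left out (10 without replicate 1 and 3 without replicate 3 of the mutant, 2 without replicate 3 of wild type).

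Replicate numbers paired no samples by the labels: same-numbered libraries had correlations of their deviations of 0.305 and 0.353 in experiment 1, where only 2 pairs exist, and of -0.528, -0.703 and 0.135 in experiment 2. With 2 wild-type libraries the deviations are mirror images, so the different-numbered values were fixed at -0.305 and -0.353 and are not separate evidence on pairing. In experiment 2 the highest value, 0.735, joined replicate 2 of paternal nrpd1 and replicate 1 of wild type. With the block, 41 of 45 members were lower in homozygous nrpd1 (median log2 change -0.16) and 28 of 44 higher in paternal nrpd1 (0.12), and the block called no member in total expression.

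With 1 library left out, small changes turned sign. In homozygous nrpd1, LHCA3 ranged from -0.13 to 0.0888, PSAH-1 from -0.0497 to 0.0303 and LHCA4 from -0.15 to 0.0132. In paternal nrpd1, PSBX ranged from -0.96 to 0.96, PSAE-2 from -1.004 to 0.86, LHCB1.3 from -0.23 to 0.0762, PSAH2 from -0.43 to 1.37, LHCA3 from -0.10 to 0.32, PSBR from -0.0223 to 0.84, LHCA2 from -0.22 to 0.42 and PSAL from -0.23 to 0.49. Without replicate 2 of paternal nrpd1 and replicate 1 of wild type together, an alternative chosen after seeing the data, they were -0.15 for LHCA3, 0.12 for PSBX, 0.0645 for PSAE-2, -0.25 for LHCA2 and -0.0345 for PSAL. Log2 changes of the Ler to Col ratio in homozygous nrpd1 ranged from -0.0013 to 0.11 for LHCB6 and from -0.39 to 2.79 for PSBO1. In paternal nrpd1 they ranged from -0.18 to 0.013 for PSBS, from -0.0301 to 0.0224 for PSBQ-2 (0.0133 without both libraries), from -0.0363 to 0.0226 for LHCB6, from -0.0057 to 0.16 for LHCB4.2, from -0.0087 to 0.0763 for LHCA4 and from -0.0032 to 0.10 for PSBO1. With the listed genes kept, PSBS and PSBQ-2 of experiment 1 no longer passed against 2 to 1. That test was not run with a library left out in experiment 1, where 1 library would remain. The cause of these shifts was not tested. Too few allele-assigned counts limited the shares of 23 members in either experiment, among them members with many counts in all, and low depth limited the totals of RBCS1B, RBCS2B and LHCB1.4.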

Other observations

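The wild types of the 2 experiments, which differ in kit, read length, pairing and age, were not compared by a test. Their mean CPM are given side by side as experiment 2 over experiment 1. The ratio was 5.46 for RBCS1A, 5.05 for PSBR, 3.52 for PSAH2 and 3.19 for PSBX, and 0.303 for RCA. Over 11 members with under 1000 exon bases the median ratio was 1.88, and over 30 longer members 0.947. Across these 41 members, which share the same libraries, the Spearman correlation of the ratio with exon length was -0.50, given as a description.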
